A study of Mus musculus with 7 samples.

Results

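Cohesin and CTCF binding was described around 5 autosomal genes of the urea cycle in female mouse liver, namely Cps1, Ass1, Asl, Nags and Slc25a15. For each gene, the span given in the GENCODE annotation of mm9 was extended by 50 kb on each side, and every peak of the CTCF list and of the Rad21 list that overlapped this window was taken. All 5 genes were found. Their windows held 68 of the 68656 Rad21 peaks and 73 of the 68667 CTCF peaks. Rad21 peaks that overlapped a CTCF peak by at least 1 bp are called CAC (cohesin-and-CTCF) and those without one CNC (cohesin-non-CTCF), while CTCF peaks without a Rad21 peak are called Lone CTCF. The rule for genes and windows uses gene names and annotated positions, and no peak value.

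The liver is the main organ of the urea cycle, which turns toxic ammonia into urea for excretion. In the mitochondrion of the periportal hepatocyte, Nags makes N-acetylglutamate, the obligate activator of Cps1, and Cps1 joins ammonia and bicarbonate into carbamoyl phosphate in the first committed step. Ornithine enters the mitochondrion and citrulline leaves it through the transporter Slc25a15. In the cytosol, Ass1 condenses citrulline with aspartate, and Asl splits the product into arginine and fumarate. Cohesin is a ring complex that extrudes chromatin loops and includes Rad21, and CTCF is a zinc finger protein that halts it in an orientation-dependent manner. CAC sites are known mostly as loop anchors, whereas CNC sites are known to occur at enhancers and promoters of tissue-specific genes.

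Nuclei came from the livers of female Crl:CD1(ICR) mice, an outbred stock, aged 8 weeks, with no treatment or genetic change named in the labels. There were 4 libraries for CTCF and 3 for Rad21. Each list was called on the pooled libraries of its antibody, so that neither the spread between mice nor the read depth can be read from it, and no test between replicates was possible. Whole liver holds several cell types, and a weaker peak in every cell cannot be told apart from a peak in fewer cells. The strength of a peak is given as its fold enrichment, the ratio of the pooled signal at the summit to the local background, and values of CTCF and Rad21 are on separate scales. The lists hold no RNA level, so the liver label could be checked only through peaks at marker genes, given with the gene lists at the end.

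At the threshold given below, a CTCF sequence match was found under part of the CAC peaks and under no CNC peak. The matches of the leading CAC sites are shown here. A CTCF matrix 20 bp wide was learned from the 1000 CTCF peaks of highest fold enrichment on odd-numbered autosomes (at least 23.9, none of them in these windows), and its consensus was TGGCCACCAGGGGGCGCCAG. A match was called within 100 bp of a summit at a score of at least 14 bits, which 1% of flanking windows without a peak reached. The lines below give, for each gene, the match in the CAC peak of highest CTCF fold enrichment and, where it holds a match, the CAC peak nearest to the transcription start site (TSS). Positions are in mm9, each sequence is written 5′ to 3′ on the strand given, and all letters are in capitals because the whole run is the match.
Nags, 42.8 kb upstream, chr11:101964005-101964024, plus strand: CTGCCACCAGGGGGCGCCTG
Nags promoter, chr11:102006710-102006729, minus strand: AGACCAGAGGGTGGCGCCTC
Cps1, 58.3 kb downstream of the TSS in an intron, chr1:67227941-67227960, plus strand: AAACCACACGGGGGCGCTAG
Slc25a15, 34.6 kb upstream, chr8:23543626-23543645, plus strand: CTGCCACATGGTGGCGCTGT
Slc25a15 promoter, chr8:23508932-23508951, minus strand: CGGGCGGCAGAGGGCGAGCC
Ass1, 34.4 kb upstream, chr2:31291272-31291291, plus strand: GAACCTGTAGGGGGCAGCAT
Ass1 promoter, chr2:31325599-31325618, minus strand: CCACCTCCCGGGGGCGCACG
Asl, 19.3 kb upstream, chr5:130520207-130520226, plus strand: TGGCCAGGAGAGGGACCCAG
Asl, 1.27 kb inside the gene, chr5:130499718-130499737, plus strand: AAGCCACTAGGTGGCGCTGG
The promoter matches of Nags (14.4 bits), Slc25a15 (14.1) and Ass1 (14.7) scored lower than the match just inside Asl, which scored 22.1 bits. All of these were searched around CTCF summits. Around the Rad21 summit of the Nags promoter site lay a second match, of 14.7 bits, on the plus strand at chr11:102006944-102006963.

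None of the 19 CNC peaks held such a match. Of these, 5 (26.3%) held the letters TTGCNNAA of a C/EBP motif within 100 bp of the summit on either strand. The share was 12.9% over autosomal CNC peaks, and 6 of the 49 CAC peaks of the windows (12.2%) held the letters. C/EBP is a family of bZIP factors known for metabolic control in hepatocytes. For 4 of these 5 CNC peaks the window touched no exon, and these 4 are printed below. Each is 201 bases centred on the Rad21 summit, on the plus strand of mm9, with the C/EBP letters (or their reverse complement) in capitals.
Cps1, 6.08 kb upstream, chr1:67163416-67163616: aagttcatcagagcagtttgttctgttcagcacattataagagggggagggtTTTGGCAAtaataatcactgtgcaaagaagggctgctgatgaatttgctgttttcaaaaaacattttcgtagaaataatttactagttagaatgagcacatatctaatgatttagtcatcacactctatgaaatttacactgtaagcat
Slc25a15, 2.12 kb upstream, chr8:23511108-23511308: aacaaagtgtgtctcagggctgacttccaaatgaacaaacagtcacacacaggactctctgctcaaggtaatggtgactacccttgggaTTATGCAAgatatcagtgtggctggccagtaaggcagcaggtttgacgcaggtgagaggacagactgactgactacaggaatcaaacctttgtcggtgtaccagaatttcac
Slc25a15, 13.3 kb inside the gene, chr8:23495663-23495863: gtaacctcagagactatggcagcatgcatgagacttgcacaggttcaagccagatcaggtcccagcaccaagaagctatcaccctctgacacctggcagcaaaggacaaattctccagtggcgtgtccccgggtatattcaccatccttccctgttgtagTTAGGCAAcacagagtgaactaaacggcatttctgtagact
Ass1, 60.3 kb downstream of the TSS, chr2:31385880-31386080: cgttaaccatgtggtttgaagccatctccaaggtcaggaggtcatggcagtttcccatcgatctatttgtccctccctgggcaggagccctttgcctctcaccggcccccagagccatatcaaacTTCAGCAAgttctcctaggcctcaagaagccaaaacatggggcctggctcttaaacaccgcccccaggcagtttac
Letters that match a motif describe the sequence and do not show that the factor bound there.

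In all 5 windows both kinds of Rad21 peak were present, 19 CNC and 49 CAC peaks together. The CNC share was 27.9% (95% Wilson interval 18.7 to 39.6%, counting error only), and 26.6% of all 67228 autosomal Rad21 peaks were CNC, a value inside this interval. By gene, CNC and CAC peaks numbered 5 and 4 at Cps1, 4 and 11 at Ass1, 5 and 14 at Asl, 3 and 9 at Slc25a15, and 2 and 11 at Nags. The window of Cps1 held 1 more CNC than CAC peak, and the other 4 windows held more CAC than CNC peaks. The order at Cps1 rested on the settings, with 5 CNC and 8 CAC peaks for a flank of 100 kb, 3 and 3 for 25 kb, 2 and 2 at a minimum −log10 q of 10, and 2 and 4 when CNC peaks had to lie at least 1 kb from a CTCF peak. In number it held with 3 and 1 at a minimum fold enrichment of 5, 6 and 3 for summits within 100 bp, and 5 and 4 for an overlap of 50%. However, 2 of the 3 CNC peaks at a minimum fold enrichment of 5 were CAC peaks in the full lists whose CTCF peak fell below 5. For summits within 100 bp, 1 of the 6 was likewise a CAC peak in the full lists. The Wilson intervals of the share overlapped between all genes, from 26.7 to 81.1% at Cps1 down to 4.33 to 42.2% at Nags. Among the 73 CTCF peaks, 26 were Lone CTCF, or 35.6% (25.6 to 47.1%), and the share over all autosomal CTCF peaks, 26.2%, lay just inside this interval. The share of Lone CTCF peaks was highest in the window of Cps1 (63.6% of 11).

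**Figure D1:**
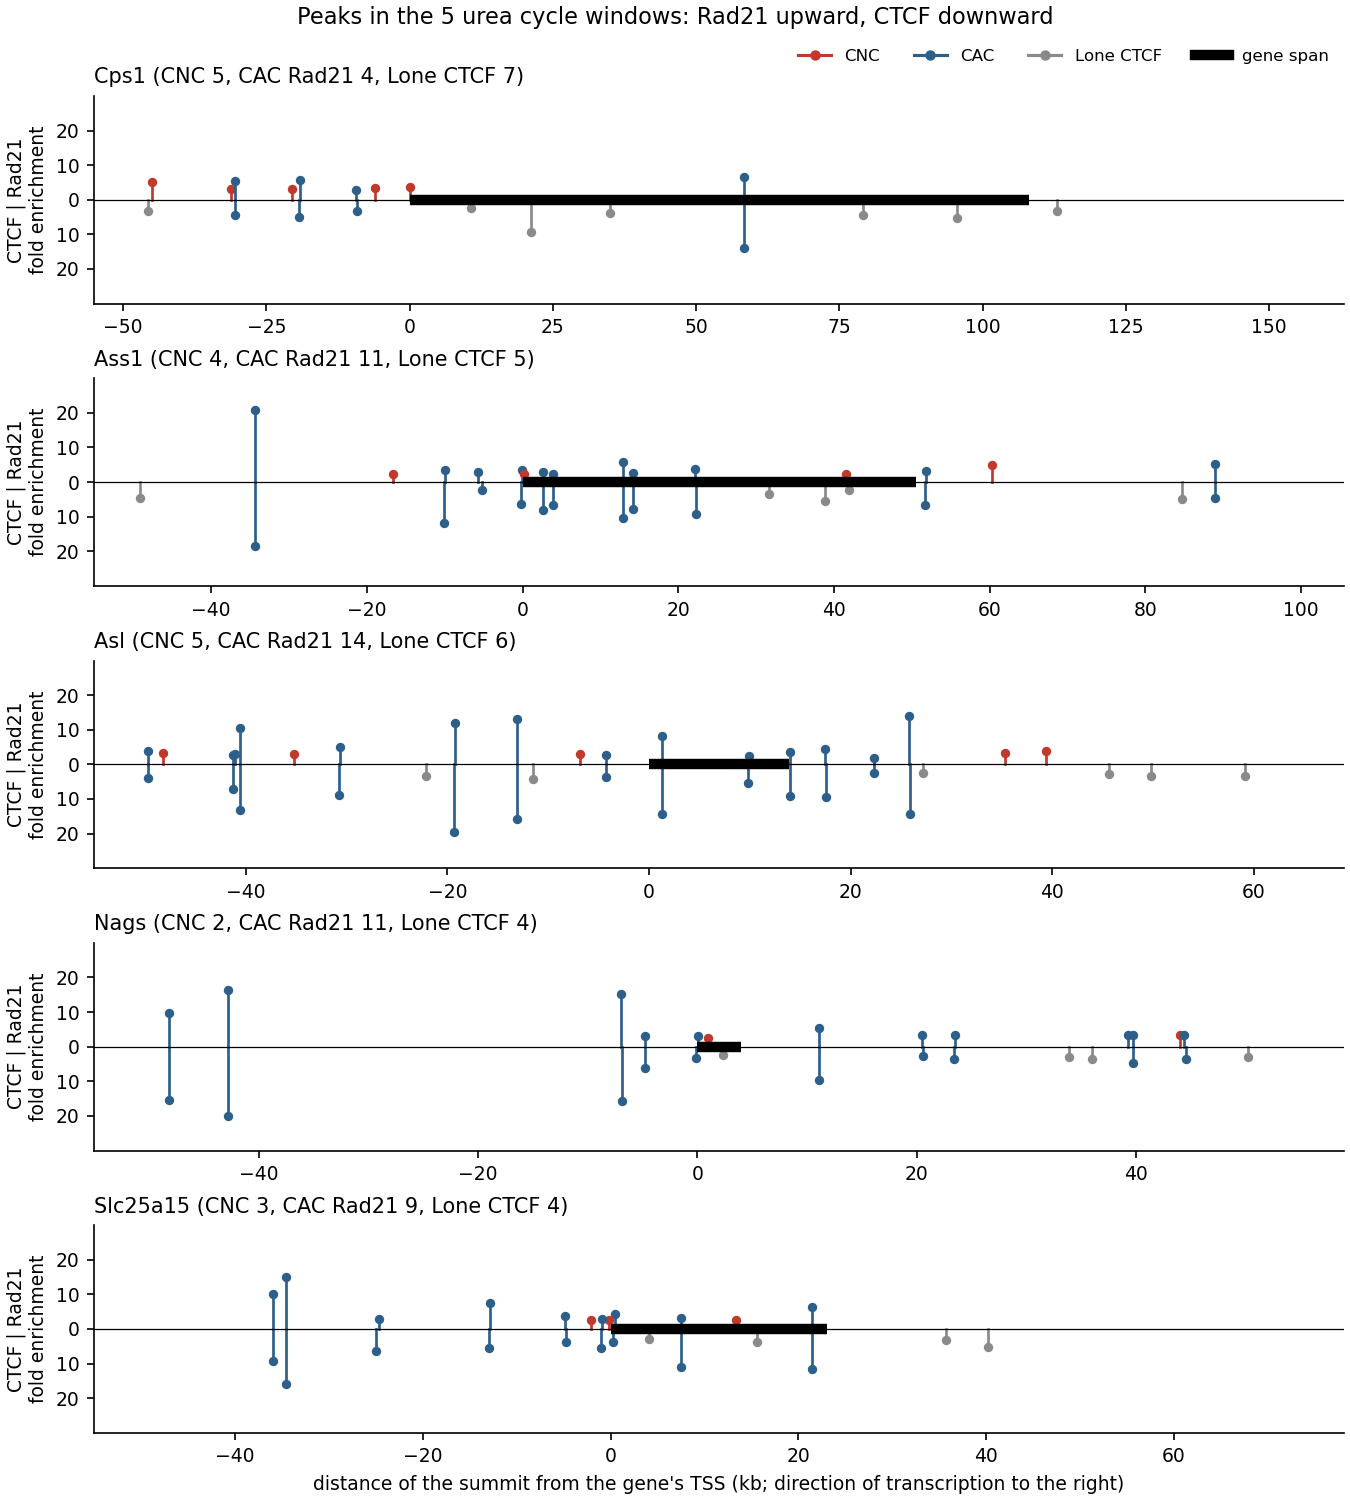
Peaks in the windows of the 5 genes. The horizontal axis is the distance of each summit from the TSS in kb with transcription to the right, Rad21 fold enrichment is drawn upward and CTCF fold enrichment downward, and colour gives the class. The CNC peaks of Cps1 lie at and upstream of the TSS, and the tall CAC pairs of Ass1, Nags and Slc25a15 lie away from the TSS.

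Nags (chr11:102006827-102010791, plus strand) is the shortest of the genes, at 3.96 kb, in a window with 6 other protein-coding genes. CAC peaks prevailed here, with 11 of 13 Rad21 peaks. The promoter itself carried a CAC site, where the Rad21 peak (102006542-102007194) had a fold enrichment of 3.02 and its summit 88 bp into the gene, and the CTCF peak had a fold enrichment of 3.39. Only 138 bases beyond that CTCF peak lay the CNC peak nearest to the TSS (102007361-102007953, fold enrichment 2.63), with its summit in a coding exon 1.01 kb downstream of the TSS. The other CNC peak (102050672-102050949) had a fold enrichment of 3.47, and its summit lay 118 bp upstream of the TSS of G6pc3, the broadly expressed glucose-6-phosphatase subunit, 44.0 kb from that of Nags. The strongest shared site of the window lay 42.8 kb upstream, in the intergenic sequence beside Ppy, a pancreatic hormone gene, with a fold enrichment of 20.1 for CTCF and 16.3 for Rad21. A further CAC site 6.94 kb upstream reached 15.7 for CTCF and 15.1 for Rad21, and the nearest on the other side lay 11.1 kb downstream, at the promoter of Tmem101, with 9.61 for CTCF and 5.28 for Rad21.

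Cps1 (chr1:67169600-67277833, plus strand) is the longest gene, at 108 kb, and the only protein-coding gene of its window. All 5 of its CNC peaks lay at the promoter or upstream. The CNC peak at the promoter (67169616-67169878) had its summit 117 bp into the gene, in a UTR exon, with a fold enrichment of 3.68 and a −log10 q of 7.77. The nearest CTCF peak was 9.18 kb away. The next CNC peak (67163331-67163652, fold enrichment 3.46), which holds the C/EBP letters printed above, lay 6.08 kb upstream, and no CTCF peak was called between the pair. The rat gene is known to have a hormone-responsive enhancer several kilobases upstream, and whether the mouse peak coincides with it was not tested. Further out, CNC peaks with a fold enrichment of 3.03, 3.15 and 5.12 lay 20.6, 31.2 and 45.0 kb upstream, and each of these was within 1 kb of a CTCF peak. The strongest of them (67124259-67124795) was 164 bases from a Lone CTCF peak. Of the 4 CAC peaks, 3 also lay upstream, at 9.29, 19.1 and 30.4 kb, with a Rad21 fold enrichment of 2.91, 5.84 and 5.47, and none of these 3 sites held a CTCF match. Inside the gene there was a single CAC site, in an intron 58.4 kb from the TSS, with 6.66 for Rad21 and 13.9 for CTCF, and it held the match printed above. No other Rad21 peak was called downstream of the promoter, although 6 Lone CTCF peaks were, of which the strongest, 21.1 kb downstream, had a CTCF fold enrichment of 9.27. The nearest upstream CAC site with a match lay outside the window, 61.4 kb from the TSS, with 24.9 for CTCF and 18.9 for Rad21.

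Slc25a15 (chr8:23486026-23509093, minus strand) had 3 CNC peaks, all nearer to its own TSS than to that of another protein-coding gene. A pair of them lay just upstream of the gene, 204 bp upstream (23509167-23509370, fold enrichment 2.62) and 2.12 kb upstream (2.68), and the strongest by a small margin (23495606-23495914, 2.69) lay in an intron 13.3 kb downstream. CAC sites lay on both sides of the promoter CNC peak. Inside the gene, a Rad21 peak with a fold enrichment of 4.31 and a summit 466 bp downstream paired with a CTCF peak of 3.88, and 953 bp upstream a Rad21 peak of 2.83 paired with a CTCF peak of 5.49. The CNC peak lay 118 bases from the nearer of these CTCF peaks. The shared sites of highest Rad21 fold enrichment in the window formed a pair 34.6 and 36.0 kb upstream, in the intergenic sequence beyond Mrps31, a mitochondrial ribosomal protein gene. Their CTCF fold enrichment was 15.8 and 9.33 and their Rad21 fold enrichment 15 and 10.2.

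Ass1 (chr2:31325727-31376192, plus strand) carried 11 CAC and 4 CNC peaks. The promoter held both kinds. A CAC site had its Rad21 summit 124 bp upstream (31325288-31325794, Rad21 3.41, CTCF 6.46), and the nearest CNC peak (31325858-31326064) had its summit 193 bp downstream in an intron, with a fold enrichment of 2.28, the lowest of the 19 CNC peaks. The 2 factors were here separated by 99 bases, the smallest gap of any CNC peak in the 5 windows. A CNC peak in an intron 41.5 kb downstream (2.38) and another in an intron of Hmcn2, 16.6 kb upstream (2.40), were of similar strength. The strongest CNC peak (31385688-31386287, 5.06) lay in intergenic sequence 60.3 kb downstream of the TSS, beyond the end of the gene. Within the gene lay 5 CAC sites, from 2.63 to 22.2 kb downstream. The site of highest CTCF fold enrichment (18.4, Rad21 20.8) lay 34.4 kb upstream over a coding exon of Hmcn2, an extracellular matrix gene, and was the only CAC site of the window to exceed 10 for Rad21.

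Asl (chr5:130487128-130501002, minus strand) had the most Rad21 peaks, with 14 CAC and 5 CNC in a window shared with 4 other protein-coding genes. No CNC peak lay inside the gene or within 1 kb of its TSS. The nearest (130507719-130507953, fold enrichment 3.09) lay 6.86 kb upstream in an intron of Crcp, an RNA polymerase III subunit gene. The strongest (130461406-130461671, 3.78) lay 39.4 kb downstream beyond Gusb, the lysosomal beta-glucuronidase gene, and another (130549050-130549545, 3.32) had its summit 3 bp from the TSS of Tpst1, a tyrosylprotein sulfotransferase gene. The gene span begins at its outermost transcript. A CAC site with its summit 1.28 kb inside the span, over a UTR exon, lay 274 bp from the start of another Asl transcript, and had a fold enrichment of 8.08 for Rad21 and 14.3 for CTCF. It was the strongest shared site within 2 kb of a member's TSS. The highest CTCF fold enrichment of the window was 19.6 (Rad21 12), 19.3 kb upstream in an intron of Crcp. Asl was also the only gene whose nearest CAC sites with a match on the 2 sides of the TSS, 1.27 kb downstream and 13.1 kb upstream, both pointed towards the TSS.

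CNC peaks were weaker than CAC peaks in these windows, with strong sites found in the shared class alone. The median Rad21 fold enrichment was 3.09 for 19 CNC peaks (95% order-statistic interval 2.63 to 3.47) and 3.69 for 49 CAC peaks (3.30 to 5.28), so that the intervals overlapped. The values of CNC peaks ranged from 2.28 to 5.12 and those of CAC peaks from 1.91 to 20.8. Of the CAC peaks, 19 exceeded the strongest CNC peak, and 2 were weaker than the weakest. Both classes ran below the whole list. Over all autosomes the medians were 3.48 for CNC and 6.14 for CAC peaks, and 4 of 19 CNC and 14 of 49 CAC peaks of the windows exceeded them. The genes differed in both classes. The median of the CNC peaks was 3.46 at Cps1, 3.32 at Asl and 3.05 at Nags, and 2.68 and 2.39 at Slc25a15 and Ass1. The median of the CAC peaks was highest at Cps1 (5.66), on 4 peaks, and lowest at Ass1 (3.37). CNC peaks were also narrower, with a median width of 309 bp against 400 bp.

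**Figure D2:**
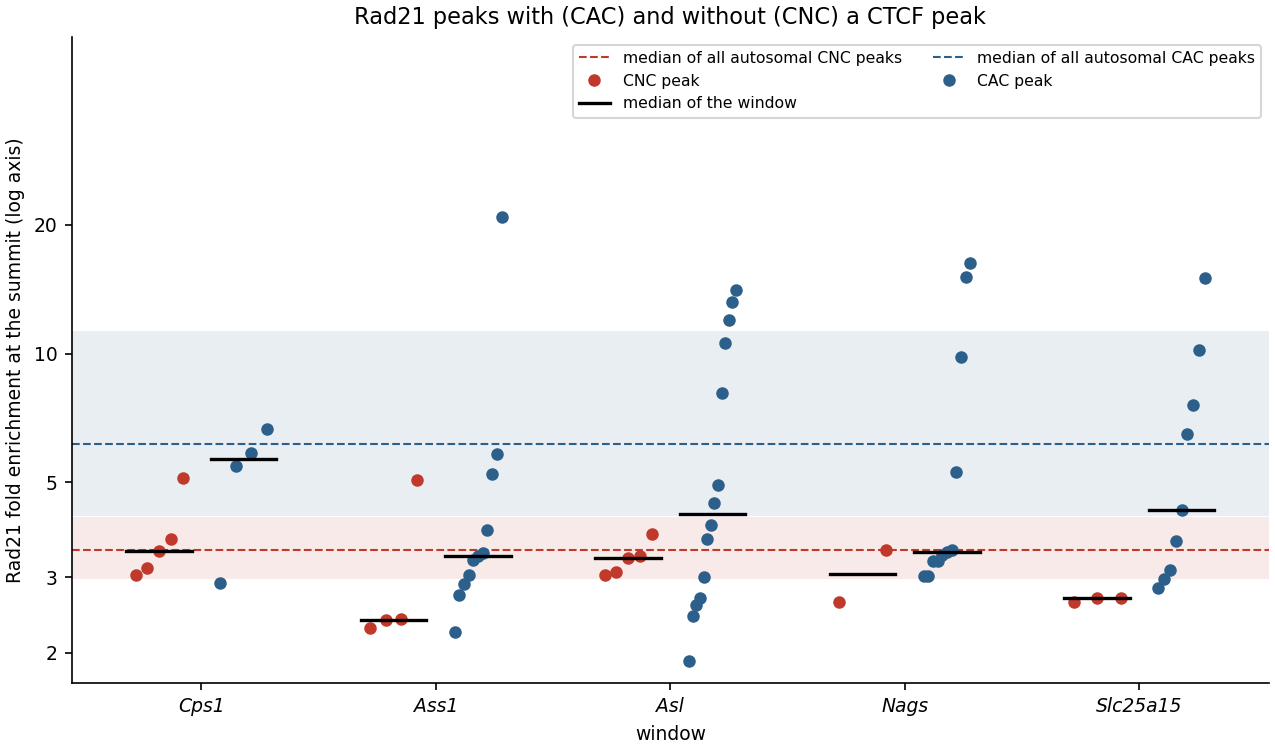
Rad21 fold enrichment at the summit (log axis) of each CNC and CAC peak by window, with short black lines at the medians. Dashed lines and bands give the medians and quartiles of all autosomal CNC and CAC peaks. CNC peaks reach at most 5.12, CAC peaks up to 20.8.

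Fold enrichment is relative to the local background, and the ranking of some windows changed with the deposited −log10 q. Each peak was set beside peaks of its own list whose fold enrichment was within 5% of its own. At Cps1 the −log10 q was close to that of similar peaks, with a median ratio of 1.05 over its 9 Rad21 peaks. In the other 4 windows it was higher, with medians from 1.46 at Ass1 to 1.7 at Nags, and in CTCF peaks the median ratio reached 1.75 at Asl and 1.62 at Ass1. The Rad21 peaks of the Ass1 window, for example, exceeded a median of 17.9% of the list by fold enrichment and 42.2% by −log10 q. None of the 7 libraries is an input, and the background signal was not analysed here.

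The 2 peaks of a CAC site did not always hold the same rank. Each Rad21 peak was paired with the CTCF peak it overlapped, and each was given the percent of its own list with a lower fold enrichment. The CTCF peak ranked higher in 32 of 49 pairs (65.3%, Wilson interval 51.3 to 77.1%), where it did so in 46.5% of 49362 autosomal pairs. A CTCF peak that overlapped more than 1 Rad21 peak entered a pair with each, so that the 49 pairs held 47 CTCF peaks. Such repeats occurred at Asl and Nags, ranked higher for CTCF each time, and were counted as separate pairs in the interval. At a minimum fold enrichment of 5 the share was 50% of 16 pairs. Ass1 stood out, with a median difference of 32.8 percentage points over 11 pairs and the CTCF peak higher in 8, compared with a median of −1.14 over all autosomes. Examples were the sites 2.63, 3.97 and 14.2 kb downstream of the Ass1 TSS, where CTCF peaks of 7.95, 6.73 and 7.70 exceeded 59.6, 53.9 and 58.7% of the CTCF list and Rad21 peaks of 2.90, 2.24 and 2.72 exceeded only 8.65, 0.683 and 5.34% of the Rad21 list. Asl followed, with a median of 9.83 points and the CTCF peak higher in 10 of 14 pairs, among them 43.4 points at the site 9.87 kb inside the gene. At Nags the CTCF peak was higher in 8 of 11 pairs, as at Ass1, with a smaller median of 4.81 points. The median was negative at Slc25a15 (−3.74) and Cps1 (−7.66), and at Slc25a15 single sites went far in both directions, from 55.9 points at 7.47 kb downstream to −24.1 points at 12.9 kb upstream. Ranked by −log10 q, the CTCF peak was higher in 31 pairs, where the autosomal share was 46%, and the median at Ass1 was 19.9 points. The summits of a pair lay within 100 bp of each other in 37 of the 49 pairs (75.5%), compared with 82% over all autosomes.

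**Figure D3:**
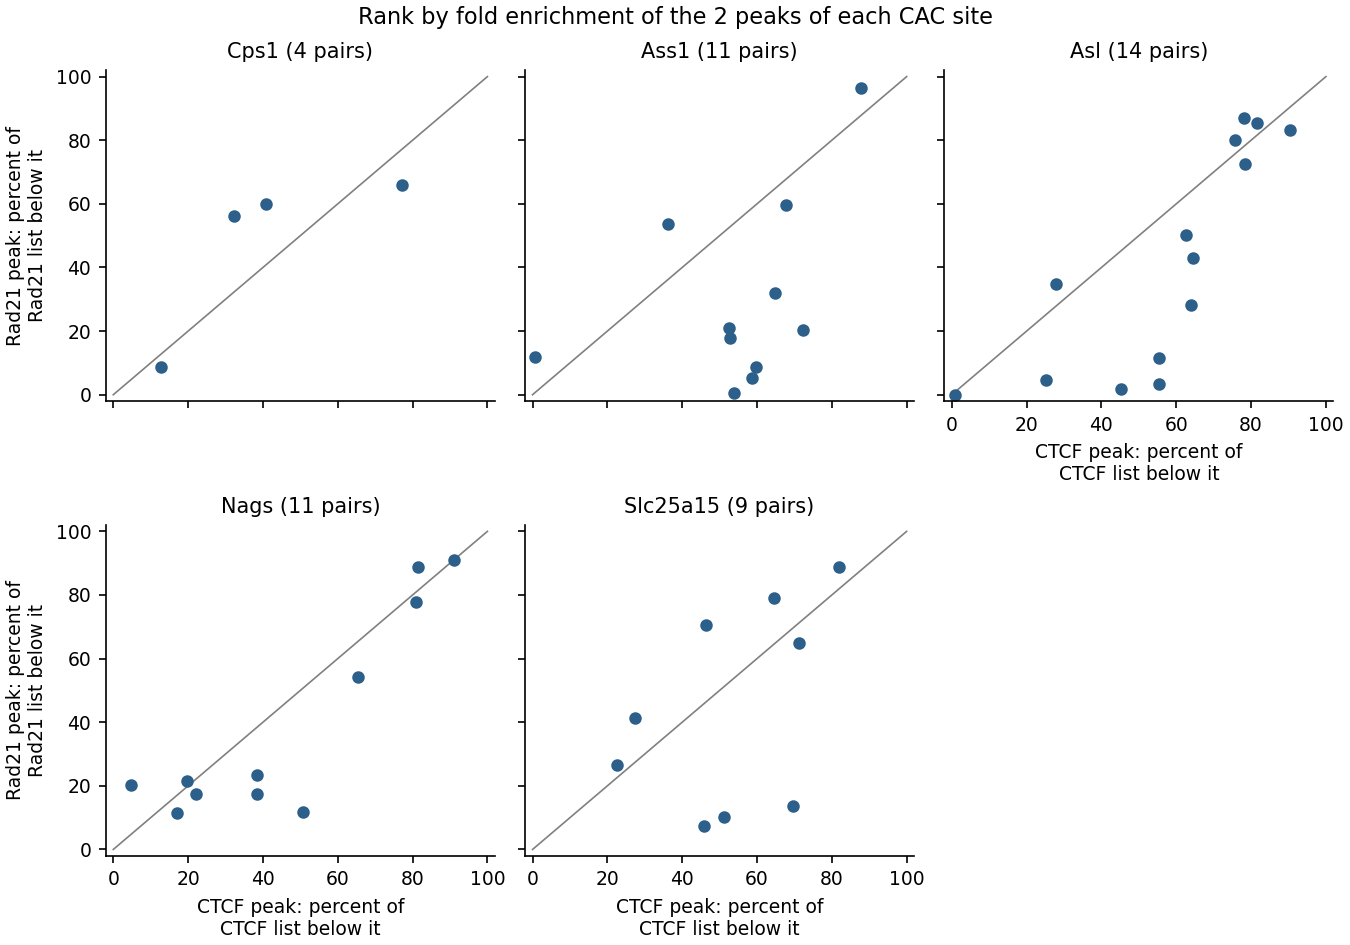
Rank of the CTCF peak (horizontal) and the Rad21 peak (vertical) of each CAC site, as the percent of its own list with a lower fold enrichment. Points below the line rank higher for CTCF, as do 8 of 11 pairs at Ass1, 8 of 11 at Nags and 10 of 14 at Asl.

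The median distance of the summit to the TSS of the urea cycle gene was 20.6 kb for CNC and 19.2 kb for CAC peaks, with 10 of 19 and 24 of 49 beyond 20 kb. The gap between these medians depended on the settings. They were 6.86 and 12 kb for a flank of 25 kb, and 41.5 and 39.3 kb for a flank of 100 kb. At a minimum −log10 q of 10 they were 44.2 and 19.2 kb, on 6 CNC and 30 CAC peaks. At a minimum fold enrichment of 5 they were 45.0 and 23.7 kb, on 5 and 16 peaks. At each of these thresholds, 3 of the CNC peaks were CAC peaks in the full lists. A CNC summit lay within 1 kb of the TSS at 3 of the 5 genes (Cps1, Ass1 and Slc25a15), compared with 8.53% of 21418 autosomal protein-coding genes. These 3 peaks were weak (fold enrichment 3.68, 2.28 and 2.62, −log10 q 7.77, 5.07 and 7.78), and with a minimum −log10 q of 10 or a minimum fold enrichment of 5 the count was 0 genes. It was 1 gene, Cps1, when CNC peaks had to lie at least 1 kb from a CTCF peak, and 4 genes when sharing needed summits within 100 bp or when any transcript start was used. A CAC Rad21 summit lay there at 3 genes (Ass1, Nags and Slc25a15), compared with 45.3% of all. When other genes in the windows were counted too, 5 of 19 CNC peaks (26.3%) were within 1 kb of a protein-coding TSS, where 9.94% of autosomal CNC peaks were, and 11 of 49 CAC peaks (22.4%) were, where the autosomal share was 21.4%. Of the CNC peaks, 10 were intergenic, 6 intronic, 2 in UTR exons and 1 in a coding exon. For 11 of 19 CNC peaks and 23 of 49 CAC peaks the nearest protein-coding TSS was that of the urea cycle gene.

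Many CNC peaks lay beside a CTCF peak without touching it. The gap between a CNC peak and the nearest CTCF peak had a median of 1044 bases in the windows and of 4894 bases over all autosomes, and 9 of 19 CNC peaks (47.4%) lay within 1 kb of a CTCF peak, where 23.3% of autosomal CNC peaks did. Gaps under 200 bases occurred at 4 peaks, namely the promoter CNC peaks of Ass1 and Slc25a15, the exonic peak of Nags and the strongest peak of Cps1. For these 4, whether CTCF bound under the CNC peak below the calling threshold was not tested. Beyond 1 kb lay 10 CNC peaks, of which the promoter CNC peak of Cps1 had the largest gap, 9.18 kb. At most 2 CNC peaks followed each other with no CTCF peak between them, in 2 runs at Cps1 and in 1 at Asl that lay 35.3 to 39.4 kb downstream of the TSS.

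**Figure D4:**
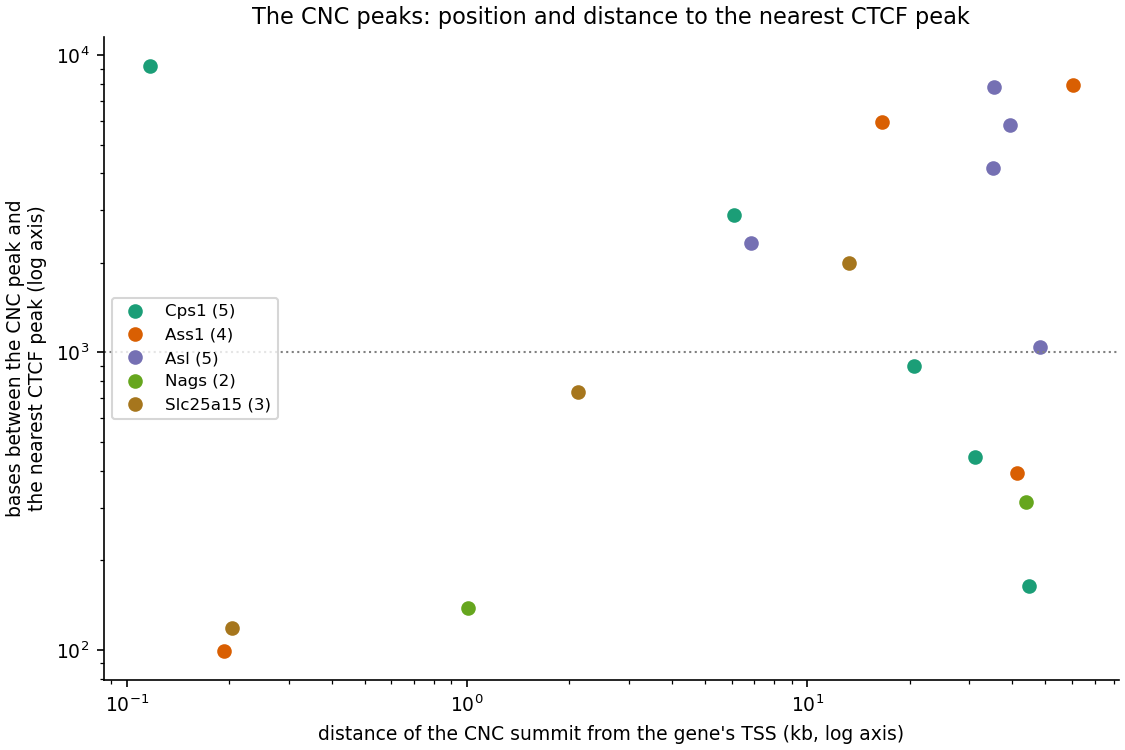
Position of the 19 CNC peaks by distance of the summit from the TSS of the urea cycle gene and by the number of bases to the nearest CTCF peak, both on log axes. The dotted line marks 1 kb. The promoter CNC peak of Cps1 lies far from CTCF, while those of Ass1 and Slc25a15 lie 99 and 118 bases from it.

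The CTCF match, searched around the Rad21 summit, was found in 0 of 19 CNC peaks (Wilson upper bound 16.8%), where the share of autosomal CNC peaks was 2.9%, and in 24 of 49 CAC Rad21 peaks (49%, 35.6 to 62.5%), where the autosomal share was 46%. CAC peaks held it most often at Asl (9 of 14) and Ass1 (7 of 11), in 5 of 11 at Nags, and less often at Cps1 (1 of 4) and Slc25a15 (2 of 9). Searched around the CTCF summits instead, it was at 4 of 9 CAC sites of Slc25a15, the promoter site printed above among them, and at 1 of 4 at Cps1. Among Lone CTCF peaks 7 of 26 held one (26.9%, 13.7 to 46.1%), where the autosomal share, 40.5%, was inside this interval. With the threshold lowered to 9.68 bits, which 5% of flanking windows reached, 10.5% of the 19 CNC and 53.1% of the 49 CAC peaks held a match.

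Letters of liver factors were searched in the same 201 bases on both strands, and no overlap among the motifs was removed. The C/EBP letters TTGCNNAA were found at 5 of 19 CNC peaks (26.3%, Wilson interval 11.8 to 48.8%), and the share of autosomal CNC peaks, 12.9%, was inside this interval. At CAC peaks the letters were found in 6 of 49 (12.2%), against 8.11% of autosomal CAC peaks. By gene, the CNC peaks with them were 2 at Slc25a15 and 1 each at Cps1, Ass1 and Asl. The FOXA letters TGTTTAC were at 0 CNC and 0 CAC peaks, where the autosomal shares were 4.75% and 2.6%. The HNF4A letters CAAAGTCCA were likewise at 0 of either class, with autosomal shares of 1.49% and 0.573%. Taken as 3 peaks of the total, a bound that differs a little from the Wilson bound above, a count of 0 allows a share of up to 15.8% of 19 CNC and 6.12% of 49 CAC peaks, above these autosomal shares. The GC content of the 201 bases had a median of 48.8% at CNC and 53.2% at CAC peaks, and over the CNC peaks it ran from 34.3% at the Cps1 peak 6.08 kb upstream to 65.7% at the Ass1 promoter.

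In the full lists, CNC peaks were denser in the windows of all 5 genes than around most genes. Stricter thresholds left 0 CNC peaks in some of these windows, at Asl and Slc25a15 with a minimum −log10 q of 10, and at Asl, Nags and Slc25a15 with a minimum fold enrichment of 5. Windows of the same kind were drawn around all 21418 autosomal protein-coding genes, and 56.9% of these held at least 1 CNC peak. Their median was 1 CNC and 5 CAC peaks, or 0.752 CNC and 3.86 CAC peaks per 100 kb. The 5 genes had 1.92 (Nags), 2.40 (Cps1), 2.44 (Slc25a15), 2.66 (Ass1) and 4.39 (Asl) CNC peaks per 100 kb. These densities exceeded those of 77.8% of the genes at Nags and of 95.8% at Asl. CAC density varied more, from 1.92 per 100 kb at Cps1 (above 27.8% of genes) and 7.31 at Ass1 and Slc25a15 (82.7%) to 10.6 at Nags (96.5%) and 12.3 at Asl (99.1%). Windows of neighbouring genes overlap, and the Asl and Nags windows hold several other genes.

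Other genes of nitrogen handling, taken as a list, held CNC peaks too. Their 9 windows held 35 CNC and 63 CAC peaks (35.7% CNC, Wilson interval 26.9 to 45.6%), with a median of 2.90 CNC peaks per 100 kb. The X-linked Otc, which joins carbamoyl phosphate and ornithine into citrulline, had 2 CNC and 2 CAC peaks, with a CNC peak 113 bp from its TSS, as at Cps1. Slc25a13, the aspartate carrier of the cycle, had 8 CNC and 8 CAC peaks. Got2 and Slc7a2 had 4 of 8 and 5 of 12 Rad21 peaks without CTCF. Glul, the glutamine synthetase gene of pericentral hepatocytes, had 2 CNC and 3 CAC peaks, and Glud1, Gls2, Car5a and Oat had 4, 5, 3 and 2 CNC peaks. A CNC peak within 1 kb of the TSS was seen at 2 of the 9, Otc and Car5a.

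For comparison, 6 genes of gluconeogenesis and amino acid breakdown, another periportal pathway (Pck1, G6pc, Fbp1, Pcx, Slc37a4 and Tat), held 21 CNC and 57 CAC peaks (26.9% CNC, 18.3 to 37.7%), with a median of 2.16 CNC peaks per 100 kb. A CNC peak within 1 kb of the TSS was present at 1 of them, Fbp1, and at 3 of the 5 urea cycle genes. The intervals of the shares overlapped, and no difference between the 2 pathways was tested. The 5 genes of abundant hepatocyte secreted proteins (Alb, Apoa1, Apob, Fga and Ttr) had 31 CNC and 39 CAC peaks (44.3%, 33.2 to 55.9%) and a median of 4.63 CNC peaks per 100 kb, with a CNC peak within 1 kb of the TSS at 4 of the 5. The 5 genes of muscle, neurons, astrocytes, T cells and pancreatic beta cells (Myod1, Neurod1, Gfap, Cd3e and Ins2) had 8 CNC and 23 CAC peaks (25.8%, 13.7 to 43.2%), a share close to that of the urea cycle genes, and a median of 1.76 per 100 kb, with such a peak at 0 of 5. The median density of the urea cycle genes, 2.44, lay between those of these 2 lists.

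**Figure D5:**
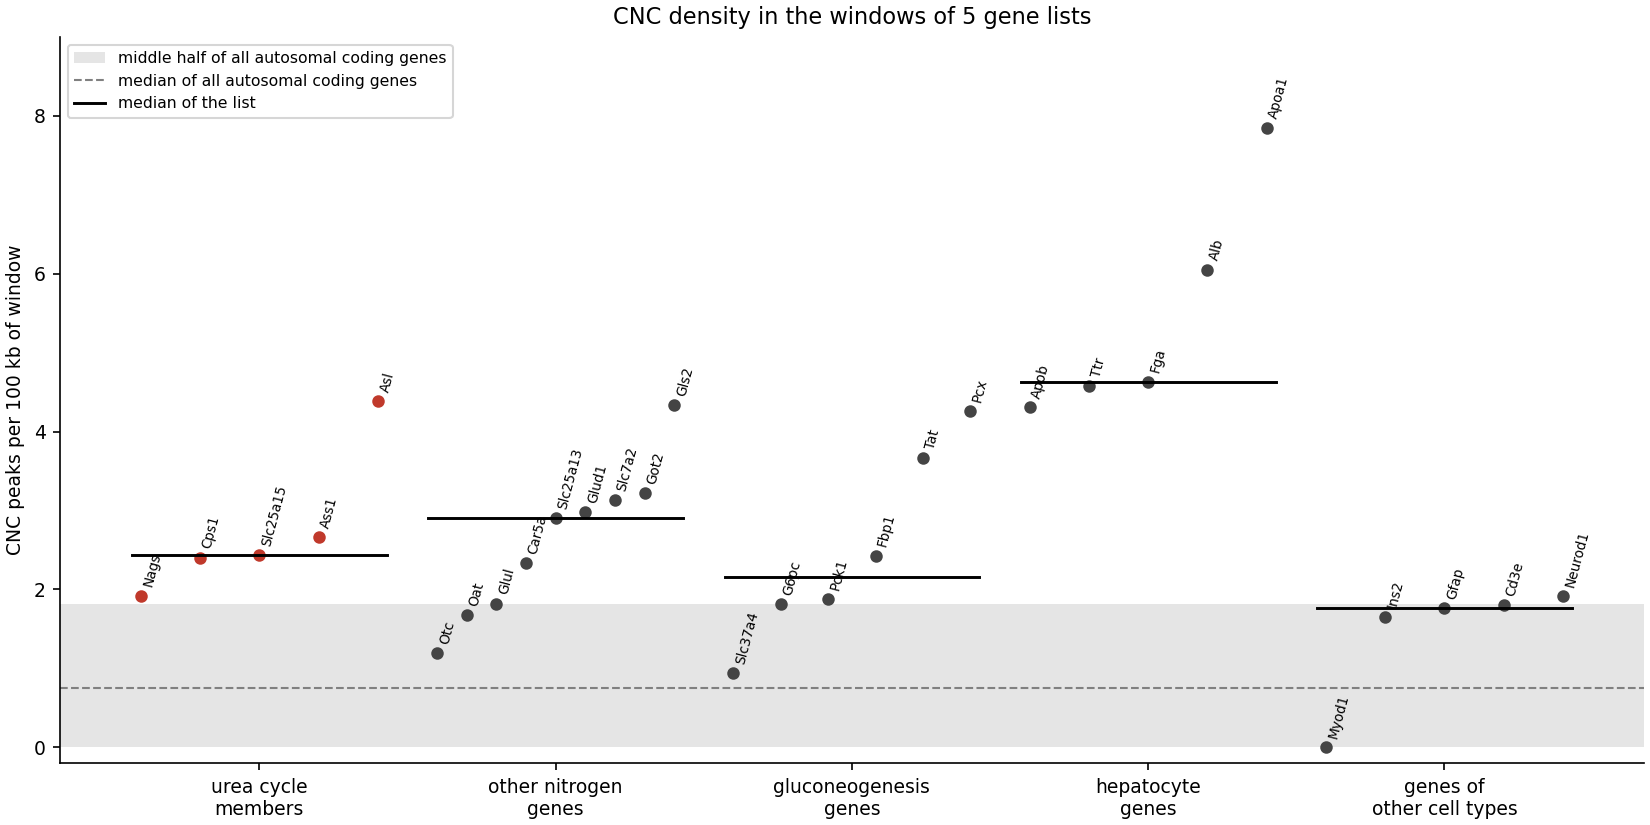
CNC peaks per 100 kb of window for each gene of the 5 lists, with the median of each list as a black line. The dashed line (0.752) and the band (0 to 1.82) give the median and quartiles of all autosomal protein-coding genes. All 5 urea cycle genes lie above the band, from 1.92 to 4.39, and hepatocyte genes reach 7.85.

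Peaks at the margin of the windows depend on the 50 kb limit. The Rad21 peak closest to a limit on the inside was a CAC peak at Asl (3.98, reaching 614 bases into the window), and the closest on the outside were a CAC peak 1609 bases beyond the Ass1 window (5.55) and a CNC peak 1823 bases beyond the Nags window (2.57). For CTCF, a CAC peak at Asl reached 413 bases inside (3.93), and a CAC peak lay 1525 bases outside the Ass1 window (5.33).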

How the data were processed

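ChIP-seq for CTCF (4 libraries) and Rad21 (3 libraries) was performed on liver nuclei of female mice. Per the labels, alignment to mm9 used Bowtie2 and peak calling used MACS2. Per the study's methods the libraries of each antibody were pooled and blacklisted regions and peaks made only of duplicate reads were removed. A region without a peak can therefore still be bound, and a deeper pool yields more peaks. The authors deposited 1 ratio per peak, the fold enrichment at the summit, with the −log10 p, the −log10 q, a peak score and a summit offset. The deposited ratio and −log10 q were used as given, within a list only. No column belonged to a single library (0 left unused), and read depth was not used here.

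Peaks were classed by overlap of at least 1 bp with numpy 2.4.6 and pandas 2.3.3, and genes were taken from GENCODE for mm9, whose chromosome lengths fit all peaks. Sequence was read with pysam 0.24.0 and samtools 1.23.1. The motif threshold came from 55849 windows 1000 bp from CTCF summits on even-numbered autosomes. Wilson intervals (statsmodels 0.14.6) and order-statistic intervals of medians (scipy 1.17.1) are at the 95% level. Overlap and motif steps were tested on simulated data. Plots used matplotlib 3.10.9.

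The genes and gene lists were chosen with earlier results of these data known, and 1 gene of the set and 1 of a gene list are not reported here. By the naming rule, the text names peaks within 1 kb of a TSS, the strongest and nearest CNC peaks, the CAC peak of highest CTCF fold enrichment and the nearest CAC peaks on either side. Further peaks, and the pairing by rank, were chosen after their values were seen. Alternatives were peaks of −log10 q from 10 up, peaks of fold enrichment from 5 up, sharing defined by 50% of the peak or by summits at most 100 bp apart, flanks of 25 and 100 kb, a 5% motif background rate, motifs within 50 bp, and distance to any transcript start.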

Additional observations from a re-analysis of the deposited data

How the results depend on the processing

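No paired analysis was possible because each list was called on pooled libraries, and for the same reason no replicate could be left out. Stricter thresholds removed a larger share of the CNC than of the CAC peaks. With a minimum −log10 q of 10 there were 6 CNC and 30 CAC peaks, although 3 of these 6 were CAC peaks in the full lists whose CTCF peak fell below 10, a CNC share of 16.7% (19.5% over all autosomes), with a median Rad21 fold enrichment of 4.27 and 5.83, a median CNC distance of 44.2 kb and a CTCF match in 63.3% of CAC peaks. With a minimum fold enrichment of 5 there were 5 CNC and 16 CAC peaks, a CNC share of 23.8% (16.3% over all autosomes), with medians of 5.22 and 10.4, a median CNC distance of 45.0 kb and a match in 81.2% of CAC peaks. No CNC peak was left at Asl, Nags or Slc25a15, and 3 of the 5 at Cps1 and Ass1 were CAC peaks in the full lists whose CTCF peak fell below 5. Requiring summits within 100 bp gave 31 CNC peaks, a share of 45.6% (39.4% over all autosomes). A 25 kb flank left 17 Lone CTCF peaks and a median CAC distance of 12 kb, and a 100 kb flank gave 29 CNC and 75 CAC peaks and 39.3 kb. Chosen after seeing the data, the requirement that CNC peaks lie at least 1 kb from a CTCF peak left 10, and 0 at Nags. These were 16.9% of the 59 Rad21 peaks that remained once the other CNC peaks were dropped (21.7% over all autosomes, counted in the same way). The share of pairs in which CTCF ranked higher moved only for a minimum fold enrichment of 5, to 50% of 16. Among the main comparisons, 54 values under an alternative stayed within their interval or within 1.5 times the count, and 22 did not. CNC peaks remained weaker in median than CAC peaks, and held the match less often, under each setting run. The causes of these shifts were not tested.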

Other observations

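From the promoter of Cps1 to the end of its window, mainly Lone CTCF peaks were called. From 117 bp to 58.4 kb downstream of the TSS, no Rad21 peak was called, while 3 Lone CTCF peaks were, at 10.7, 21.1 and 34.9 kb, with a CTCF fold enrichment of 2.50, 9.27 and 3.73. Beyond the CAC site at 58.4 kb, a further 3 Lone CTCF peaks lay at 79.1, 95.5 and 113 kb, the last of them beyond the end of the gene, with 4.44, 5.23 and 3.30. The peak at 21.1 kb ranked above 64.4% of the CTCF list and held a CTCF match of 17.4 bits.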
